A study of Homo sapiens with 9 samples.

Results

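The 9 genes described here encode the enzymes that make serine and pass its carbon into the folate cycle: PHGDH, PSAT1, PSPH, SHMT1, SHMT2, MTHFD1, MTHFD2, MTHFD1L and ALDH1L2. They were chosen by name for their role in the pathway, with earlier results of these data known, and all 9 were found among the 60606 genes of the expression table. RNA-seq had been carried out on 3 cell lines with 3 libraries each, which makes 9. U87 is a long-established glioblastoma line of human origin, grown without irradiation in DMEM with 10% fetal bovine serum (FBS). GSCs are stem-like cells grown from U87 in serum-free DMEM/F12 with B27, EGF at 20 ng/ml and bFGF at 20 ng/ml, and exposed to 13 cycles of 5 Gy. Diff cells were grown out from selected colonies of the irradiated GSCs, in DMEM with 10% FBS, so they share the medium of U87 and the irradiation history of GSCs. GSCs without irradiation were not analysed here, and in the comparison of GSCs with U87 the medium, the growth factors and the irradiation cannot be told apart. In the comparison of Diff cells with U87, irradiation, passage through stem cell culture and selection of colonies cannot be told apart. Between Diff cells and GSCs the medium, the growth factors, differentiation and selection of colonies cannot be told apart either.

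Serine is made from the glycolytic intermediate 3-phosphoglycerate in a short chain of reactions. Its side chain carbon is then moved onto tetrahydrofolate, which yields glycine and a one-carbon unit for the synthesis of purines, thymidylate and methionine. The folate reactions run in parallel in the cytosol and in mitochondria, where the one-carbon unit can be released as formate and carried to the cytosol. Many proliferating tumour cells, glioma cells included, rely on this route, and the transcription factor ATF4 is known to drive several of its genes when amino acids are short or the endoplasmic reticulum is stressed.

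The values are TPM, the transcripts of a gene out of 1000000, in which gene length and library total are divided out. The annotation that sets the gene lengths is not given in the sources used here, so ranks and ratios between genes are approximate. Differences are given on the scale of log2(TPM + 1), which understates the change of low genes, with a standard error (SE) and a p-value from limma adjusted by Benjamini-Hochberg over the 22909 genes with a mean TPM over 1. A gene passed the test at an adjusted p under 0.05. The sources used here do not say whether the 3 libraries of a line came from separate cultures. The p-values therefore only set each difference against the spread between these libraries, pooled over the 3 lines and moderated across genes. Between libraries of the same line, Pearson's r across genes was 0.956 to 0.971, genes not being independent replicates. Genes of the mitochondrial genome took 25.9% to 31.8% of TPM and the RNA RN7SL1 5.73% to 9.79%. The 6 glioma stem cell markers examined summed to 51.3 to 56.1 TPM in U87, 33.5 to 34.9 TPM in the Diff libraries and 50.3 to 59.0 TPM in GSCs, so their sum did not set GSCs apart from U87. NES, the largest of the 6 in each line, was lower in GSCs than in U87 (22.6 and 33.0 TPM, adjusted p = 0.00047, limma). The other markers had higher means in GSCs than in U87. FABP7 had 4.91 and 0.731 TPM and passed the test, whereas OLIG2 (8.75 and 7.27 TPM) and NOTCH1 (16.4 and 12.9 TPM) did not. PROM1 (0.507 and 0.171 TPM) and SOX2 (0.879 and 0.0383 TPM) were below 1 TPM in every library and were not tested.

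PHGDH and PSAT1 of serine synthesis and the mitochondrial enzymes SHMT2, MTHFD2, MTHFD1L and ALDH1L2 were highest in U87, whereas PSPH and the cytosolic SHMT1 and MTHFD1 were not higher there by the test. In Diff cells against U87, 7 of the 9 genes passed the test, where 39.4% of all genes tested did: PHGDH, PSAT1, SHMT2, MTHFD2, MTHFD1L and ALDH1L2 fell and MTHFD1 rose. In GSCs against U87, 7 of the 9 passed, where 48.6% of all genes tested did: the same 6 genes fell and SHMT1 rose. Both comparisons rest on the same 3 U87 libraries. Higher calls made up 18.9% and lower calls 20.5% of all genes tested in Diff cells, and 25.3% and 23.3% in GSCs. The libraries did not overlap with those of U87 for 8 of the 9 genes in Diff cells and for 7 in GSCs, beside 55.2% and 55.8% of all genes tested. The median log2 fold change of the 9 genes was −0.83 in Diff cells and −1.07 in GSCs, against −0.04 and 0.02 over all genes tested. The summed level of the 9 genes was 793 ± 87.8 TPM (SD, n = 3) in U87, 367 ± 21.9 TPM in the Diff libraries and 261 ± 4.97 TPM in GSCs. In bulk RNA, fewer cells that express a gene and less RNA per cell cannot be told apart.

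**Figure D1:**
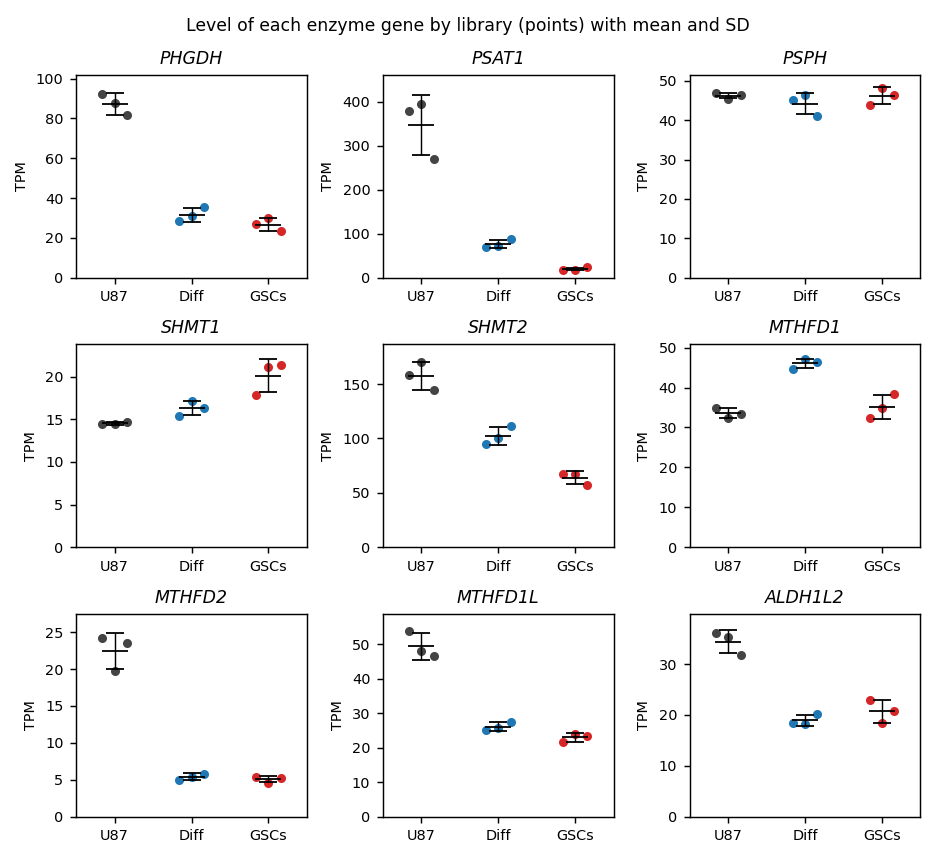
TPM (y axis, from 0, a separate scale per gene) of each of the 9 enzyme genes in the 3 libraries of U87, Diff cells and GSCs (points), with the mean and SD (bars). The U87 libraries lie above all others for PHGDH, PSAT1, SHMT2, MTHFD2, MTHFD1L and ALDH1L2, the Diff libraries lie highest for MTHFD1, and the 3 lines overlap for PSPH.

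PSAT1 changed most of the 9 genes in each of the 3 comparisons. It encodes phosphoserine aminotransferase, which takes the second step of serine synthesis, and it lies on GRCh38 chromosome 9, plus strand, from 78297143 to 78330093. The U87 libraries held 378, 395 and 270 TPM, the Diff libraries 70.7, 71.1 and 87.2 TPM, and the GSCs libraries 17.8, 18.1 and 23.4 TPM. The 3 lines did not overlap, and the third U87 library was lower than the other two while still above every Diff library. PSAT1 fell by 2.16 on the log2 scale in Diff cells against U87 (SE 0.164, adjusted p = 1.37e-05, limma). In GSCs against U87 it fell by 4.06 (SE 0.164, adjusted p = 2.44e-07, limma). On the TPM scale the U87 mean was 17.6 times that of GSCs and 4.55 times that of Diff cells. Diff cells held more PSAT1 than GSCs, by 1.90 on the log2 scale (adjusted p = 5.45e-05, limma). From the highest level among the 9 genes in U87, PSAT1 came to rank 8 of 9 in GSCs.

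PHGDH, the dehydrogenase that takes the first step from 3-phosphoglycerate, fell to a similar level in both derived lines. The gene lies on chromosome 1, plus strand, from 119648411 to 119744226. U87 libraries had 92.4, 87.9 and 81.6 TPM, Diff libraries 28.5, 31.1 and 35.3 TPM, and GSCs libraries 26.7, 29.8 and 23.5 TPM. All 3 U87 libraries stood above the other 6, and Diff cells overlapped with GSCs. Against U87, log2 fold changes were −1.44 in Diff cells (SE 0.104, adjusted p = 1.01e-05, limma) and −1.68 in GSCs (SE 0.104, adjusted p = 2.71e-06, limma). Between Diff cells and GSCs the difference was 0.24 (adjusted p = 0.112, limma), which did not pass. PSPH, the phosphatase of the last step (chromosome 7, minus strand, 56011051 to 56051604), passed in none of the 3 comparisons. Its means were 46.2 ± 0.69 TPM in U87, 44.2 ± 2.74 TPM in the Diff libraries and 46.2 ± 2.13 TPM in GSCs (SD, n = 3 each). The 95% interval of its log2 difference was −0.203 to 0.0745 in Diff cells and −0.140 to 0.137 in GSCs, both against U87. The ratio of PSAT1 to PSPH in TPM was 7.53 in U87, 1.74 in Diff cells and 0.428 in GSCs.

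The 4 mitochondrial members, SHMT2, MTHFD2, MTHFD1L and ALDH1L2, fell in both derived lines. SHMT2, the mitochondrial hydroxymethyltransferase that splits serine into glycine and a one-carbon unit (chromosome 12, plus strand, 57229327 to 57234935), had 158, 170 and 144 TPM in U87. It had 95.3, 101 and 111 TPM in the Diff libraries and 67.5, 66.9 and 57.3 TPM in GSCs. The lines did not overlap and were ordered U87, Diff cells, GSCs. SHMT2 changed by −0.62 in Diff cells (SE 0.0909, adjusted p = 0.000713, limma) and −1.29 in GSCs (SE 0.0909, adjusted p = 5.92e-06, limma). Diff cells were higher than GSCs by 0.67 (adjusted p = 0.000642, limma). SHMT2 had the highest mean of the 9 genes in Diff cells and in GSCs.

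MTHFD2, the mitochondrial methylenetetrahydrofolate dehydrogenase and cyclohydrolase, is low in most adult tissues and high in embryos and tumours. Its U87 libraries held 24.3, 19.7 and 23.5 TPM, its Diff libraries 5.01, 5.44 and 5.85 TPM, and its GSCs libraries 5.43, 4.58 and 5.28 TPM. Every U87 library exceeded 19 TPM and no other library reached 6 TPM. It fell by 1.86 in Diff cells (SE 0.108, adjusted p = 2.89e-06, limma) and by 1.94 in GSCs (SE 0.108, adjusted p = 1.46e-06, limma). Diff cells and GSCs differed by 0.08 (adjusted p = 0.62, limma). MTHFD2 lies on chromosome 2, plus strand, from 74198562 to 74217565, and 33.2% of its exonic bases overlap exons of AC006030.1 or SLC4A5 on the opposite strand. The strand setting of the read counting is not given in the sources used here, so its level is uncertain by an amount that was not measured. The same holds for MTHFD1 and SHMT2, with 11.04% and 9.51% of exonic bases overlapped in this way.

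MTHFD1L, which releases formate from mitochondrial formyltetrahydrofolate (chromosome 6, plus strand, 150865549 to 151101887), had 54.0, 48.0 and 46.5 TPM in U87. Diff libraries had 25.03, 25.7 and 27.5 TPM and GSCs libraries 21.6, 24.0 and 23.6 TPM. It fell in both lines, with log2 fold changes of −0.90 (SE 0.075, adjusted p = 2.38e-05, limma) in Diff cells and −1.07 (SE 0.075, adjusted p = 5.74e-06, limma) in GSCs. Each Diff library lay above each GSCs library, but the difference of 0.17 did not pass (adjusted p = 0.112, limma). ALDH1L2, the mitochondrial formyltetrahydrofolate dehydrogenase, which makes NADPH (chromosome 12, minus strand, 105019784 to 105084577), had 36.1, 35.4 and 31.8 TPM in U87. Its values were 18.4, 18.1 and 20.2 TPM in the Diff libraries and 23.0, 18.4 and 20.7 TPM in GSCs. U87 stood apart and the other two lines overlapped. ALDH1L2 changed by −0.83 in Diff cells (SE 0.0921, adjusted p = 0.000131, limma) and −0.71 in GSCs (SE 0.0921, adjusted p = 0.000249, limma).

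The cytosolic enzymes moved differently from each other. SHMT1, the cytosolic counterpart of SHMT2 (chromosome 17, minus strand, 18327860 to 18363563), had 14.4, 14.5 and 14.7 TPM in U87, 15.4, 17.1 and 16.3 TPM in the Diff libraries, and 17.9, 21.1 and 21.4 TPM in GSCs. All 3 lines were separate, with GSCs highest. SHMT1 rose by 0.44 on the log2 scale in GSCs against U87 (SE 0.0819, adjusted p = 0.00206, limma). In Diff cells the difference from U87 was 0.15 (adjusted p = 0.174, limma), with a 95% interval of −0.032 to 0.341. Between the derived lines SHMT1 was the lower in Diff cells (log2 difference −0.28, adjusted p = 0.0259, limma), a call that 9 of 19 alternatives removed. It was lost at a threshold of 0.01, under each of 3 other scalings, in a fit of the 6 libraries and without Diff replicate 1 or 3 or GSCs replicate 2 or 3, with adjusted p of 0.0546 to 0.0873 where the threshold was kept. MTHFD1, the cytosolic enzyme that carries 3 activities of the folate cycle (chromosome 14, plus strand, 64388031 to 64463457), was highest in Diff cells. Its libraries had 34.9, 32.4 and 33.5 TPM in U87, 44.7, 47.1 and 46.3 TPM in the Diff libraries, and 32.4, 34.9 and 38.3 TPM in GSCs. MTHFD1 rose in Diff cells by 0.44 against U87 (SE 0.0685, adjusted p = 0.000918, limma) and by 0.38 against GSCs (SE 0.0685, adjusted p = 0.00291, limma). GSCs and U87 overlapped, with a difference of 0.06 (adjusted p = 0.481, limma).

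The balance of levels between compartments differed between the lines. The mitochondrial genes SHMT2, MTHFD2, MTHFD1L and ALDH1L2 summed to 264 ± 15.4 TPM in U87, 153 ± 10.9 TPM in the Diff libraries and 113 ± 5.47 TPM in GSCs (SD, n = 3 each). The cytosolic genes SHMT1 and MTHFD1 summed to 48.1 ± 1.22 TPM, 62.3 ± 2.06 TPM and 55.3 ± 4.77 TPM in the same order. The mitochondrial sum was 5.49 ± 0.363 times the cytosolic sum in U87, 2.45 ± 0.16 times in Diff cells and 2.05 ± 0.276 times in GSCs. Diff cells and GSCs overlapped in this ratio, and all U87 libraries stood above both. SHMT2 over SHMT1 was 10.8 in U87, 6.29 in Diff cells and 3.21 in GSCs, and MTHFD1L over MTHFD1 was 1.47, 0.566 and 0.656. These ratios are given as a description, without a test.

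**Figure D2:**
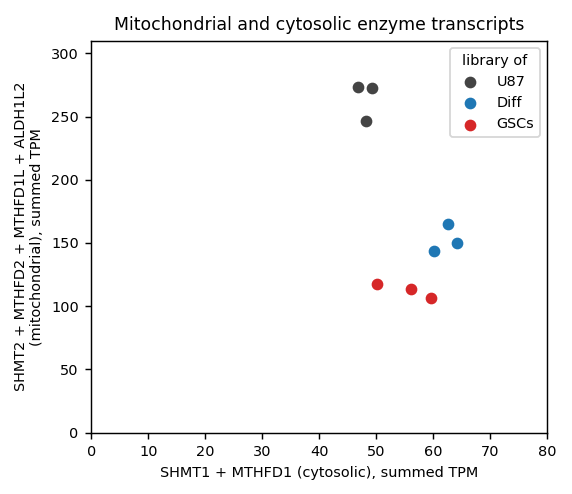
Summed TPM of the cytosolic genes SHMT1 and MTHFD1 (x axis) against summed TPM of the mitochondrial genes SHMT2, MTHFD2, MTHFD1L and ALDH1L2 (y axis), both from 0, with 1 point per library. The U87 libraries lie at 246 to 273 TPM on the mitochondrial axis and below 50 TPM on the cytosolic axis, and all other libraries lie lower on the first and higher on the second.

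Diff cells were also set beside GSCs. Of the 9 genes, 4 passed the test, where 34.8% of all genes tested did. PSAT1, SHMT2 and MTHFD1 were higher in Diff cells and SHMT1 was lower, where 15.0% of all genes tested were higher and 19.8% lower. The call of SHMT1 was removed by 9 of 19 alternatives. The libraries did not overlap for 5 of the 9 genes, the 4 that passed and MTHFD1L, beside 46.7% of all genes tested. The counts of genes past the test and of genes without overlap lie near the shares over all genes. They are no result about the 9 genes as a group. PHGDH, PSPH, MTHFD2, MTHFD1L and ALDH1L2 did not pass, and the 95% interval of the log2 difference was 0.0008 to 0.475 for PHGDH and −0.168 to 0.326 for MTHFD2. A change past 1 on the log2 scale was reached by 3 of the 9 genes in Diff cells against U87 (PHGDH, PSAT1 and MTHFD2), by 5 in GSCs against U87 (these 3, SHMT2 and MTHFD1L) and by PSAT1 alone in Diff cells against GSCs. Over all genes tested those shares were 12.3%, 17.1% and 8.01%.

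**Figure D3:**
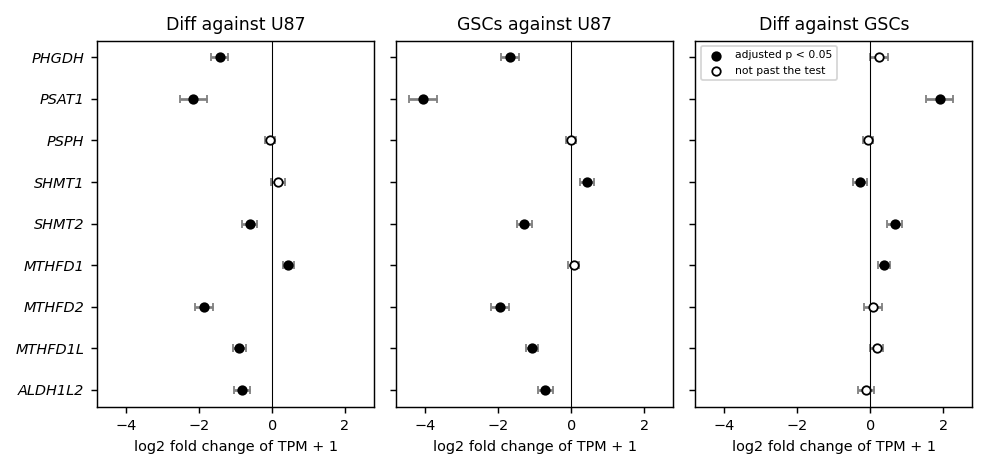
Log2 fold change of TPM + 1 (x axis) of the 9 genes in Diff cells against U87, GSCs against U87 and Diff cells against GSCs (panels), with 95% intervals as bars and filled points where the adjusted p was under 0.05. PSAT1 lies farthest from 0 in each panel, and PSPH is unfilled in all 3.

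The sequence before the start site is shown for PSAT1 and MTHFD2, which fell and for which most or all of the RefSeq window lies before the first annotated exon, and around 1 element of MTHFD1L. RefSeq (GRCh38.p14) gave a start for 6 of the 9 genes, and PSPH, SHMT2 and ALDH1L2 had no entry. The 250 bases before each start were searched on both strands for the C/EBP-ATF response element bound by ATF4 (TGATGNAAN), for the E-box bound by MYC and other factors (CACGTG) and for the CCAAT box (CCAAT). Capitals mark the matches. The PSAT1 stretch is chr9:78296875-78297124, plus strand, and holds 3 CCAAT boxes. The MTHFD2 stretch is chr2:74198365-74198561, plus strand, and holds 2. The MTHFD1L stretch is chr6:150866347-150866376, plus strand, and shows its C/EBP-ATF response element. Unlike the other stretches, it lies within an annotated exon of its own gene.
PSAT1: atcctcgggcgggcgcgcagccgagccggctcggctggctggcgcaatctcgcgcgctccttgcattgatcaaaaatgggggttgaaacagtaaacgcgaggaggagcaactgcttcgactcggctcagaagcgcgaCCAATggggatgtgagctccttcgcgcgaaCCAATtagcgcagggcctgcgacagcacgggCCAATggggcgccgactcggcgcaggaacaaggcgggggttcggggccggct
MTHFD2: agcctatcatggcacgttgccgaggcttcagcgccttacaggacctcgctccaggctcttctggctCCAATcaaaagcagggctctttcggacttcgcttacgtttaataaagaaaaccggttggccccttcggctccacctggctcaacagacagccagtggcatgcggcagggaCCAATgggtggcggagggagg
MTHFD1L: ccgccggctcTGATGCAATcgcgccgggcg

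Of the 6 genes with a window, MTHFD1L alone held a C/EBP-ATF response element, TGATGCAAT, at 129 to 121 bases before its first listed start, while 3.87% of all genes with a window held one. In the list of ATF4 and its targets described below, 16 genes had a window and 5 held one, so most of that list lacked it there too. MTHFD1L and MTHFD1 held an E-box, found for 7.73% of genes. A CCAAT box was present for all 6 genes, whether they fell or not, and for 37% of all genes with a window. These matches are a description of the letters in these windows, and several of the genes have other annotated starts.

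Of 16 listed folate enzymes and transporters, 12 were expressed enough to be tested. In Diff cells against U87, 3 of the 12 rose and 2 fell, where 18.9% of all genes tested rose and 20.5% fell. In GSCs 4 rose and 2 fell, where the shares over all genes were 25.3% and 23.3%. These counts lie near those shares and are no result about the list. TYMS, the thymidylate synthase, fell in GSCs (−0.41, adjusted p = 0.0165, limma) and had a log2 difference of −0.10 in Diff cells (adjusted p = 0.535). MTFMT, the mitochondrial formyltransferase for initiator tRNA, rose in both lines, by 0.86 and 0.77. ALDH1L1, the cytosolic counterpart of ALDH1L2, was below 0.4 TPM in every library and was not tested.

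MTHFD2L, the close relative of MTHFD2 in mitochondria, moved in opposite directions in the derived lines. It had 8.76, 7.36 and 8.28 TPM in U87, 5.83, 4.86 and 4.69 TPM in the Diff libraries, and 14.1, 11.001 and 18.8 TPM in GSCs. MTHFD2L fell in Diff cells (log2 difference −0.58, adjusted p = 0.028, limma) and rose by 0.75 in GSCs (adjusted p = 0.00674, limma). The direct difference between Diff cells and GSCs was −1.33 (adjusted p = 0.000549, limma). MTHFD2 over MTHFD2L in TPM was 2.76 in U87, 1.08 in Diff cells and 0.361 in GSCs, so in every GSCs library the MTHFD2L value was the higher of the pair.

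Genes that carry serine and glycine across membranes or break them down were mostly lower in the derived lines. Of 13 listed genes 11 were tested, of which 7 fell and none rose in Diff cells, and 7 fell and 1 rose in GSCs, where 20.5% and 23.3% of all genes tested fell. SLC6A9, the glycine transporter GlyT1, went from 24.3 ± 0.793 TPM in U87 to 1.56 ± 0.353 TPM in the Diff libraries and 1.41 TPM in GSCs (log2 fold changes −3.31 and −3.39, adjusted p = 3.73e-07 and 1.97e-07, limma). SLC1A5, a neutral amino acid transporter known for glutamine uptake, fell by 1.51 and 1.68, and SLC1A4, which carries serine and alanine, fell by 1.09 and 1.63. SDSL, a serine dehydratase-like gene, had 15.6 TPM in the Diff libraries against 15.2 TPM in U87 (adjusted p = 0.815, limma) and was 2.84 TPM in GSCs, where it fell by 2.09 (adjusted p = 4.98e-07, limma).

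Counts for the users of one-carbon units were small and are read against the same shares of all genes (18.9% higher and 20.5% lower in Diff cells, 25.3% and 23.3% in GSCs). Of 6 genes of purine synthesis, 2 rose and 1 fell in each derived line, with PAICS at −0.55 in Diff cells and −0.44 in GSCs and ATIC at 0.34 and 0.37, all past the test. Of 8 genes tested in the methionine cycle and transsulfuration, 2 rose and 3 fell in Diff cells, and 1 rose and 2 fell in GSCs. MAT1A, the liver form of methionine adenosyltransferase, was at or below 0.0412 TPM in the U87 libraries and had means of 6.21 TPM in the Diff libraries and 8.12 TPM in GSCs. CTH, the cystathionine gamma-lyase, fell in Diff cells (log2 difference −0.88, adjusted p = 0.000631, limma). Of the glycine cleavage system, 2 of 4 genes were tested, and DLD rose in both derived lines while AMT fell in Diff cells.

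ATF4 and 18 of its targets outside the pathway were listed beside the 9 genes. The list was written with earlier results of these data known. ATF4 itself had 407, 360 and 434 TPM in U87, 163, 171 and 186 TPM in the Diff libraries, and 213, 187 and 173 TPM in GSCs, and fell in both lines (−1.20, adjusted p = 1.84e-05, and −1.07, adjusted p = 2.66e-05, limma). Of the 19 genes, 15 fell and none rose in Diff cells, with a median of −1.14, where 20.5% of all genes tested fell. In GSCs 17 fell and 2 rose, where 23.3% of all genes fell, with a median of −1.70, ATF3 being one of those that rose (1.86, adjusted p = 1.74e-06, limma). SLC7A5, a transporter of large neutral amino acids, fell by 3.42 in Diff cells and by 4.83 in GSCs, and SLC7A11, the cystine transporter, fell by 2.81 and by 4.37. In Diff cells against GSCs, 11 of the 19 were higher and 2 lower, where 15.0% of all genes tested were higher and 19.8% lower. Of the 9 enzymes, 3 were higher, 1 was lower and 5 did not pass in that comparison. ATF4 differed by −0.14 (adjusted p = 0.314, limma). ATF4 activity is set largely by translation, which was not measured here.

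**Figure D4:**
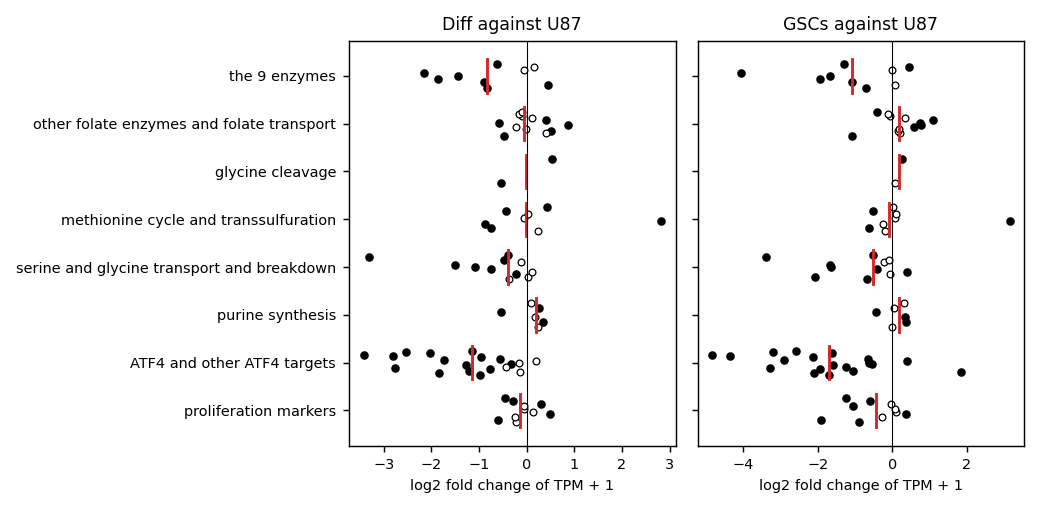
Log2 fold change of TPM + 1 (x axis) of every tested gene of the 9 enzymes and of 7 lists of related genes (rows), in Diff cells against U87 and GSCs against U87 (panels). Filled points passed the test and red bars are medians, which lie farthest below 0 for ATF4 and its targets (−1.14 and −1.70) and for the 9 enzymes (−0.83 and −1.07).

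Proliferation and MYC were examined because both are known to accompany the expression of these enzymes. Of 10 proliferation markers, 2 rose and 3 fell in Diff cells, where 18.9% of all genes tested rose and 20.5% fell. The counts in Diff cells lie near those shares and are no result about the list. In GSCs 1 rose and 5 fell, where the shares over all genes were 25.3% and 23.3%. The summed level of the 10 markers was 1152 to 1248 TPM in U87, 1082 to 1114 TPM in the Diff libraries and 722 to 799 TPM in GSCs, and no marker was at 0. In Diff cells CCNB1 fell by 0.59 (adjusted p = 0.000527, limma) and TOP2A by 0.46 (adjusted p = 0.0164, limma). MCM2 rose there by 0.48 (adjusted p = 0.00512, limma) and PCNA by 0.30 (adjusted p = 0.0129, limma), and MKI67 had a log2 difference of −0.06 (adjusted p = 0.464, limma). In GSCs CCNB1, TOP2A and MKI67 fell by 1.92, 1.23 and 1.05, and MCM2 rose by 0.37. The part of proliferation in the enzyme levels of either line was not tested. MYC rose in both derived lines, by 0.50 in Diff cells and 0.94 in GSCs, and of the 4 genes of the MYC list 2 were tested. Markers of other cell types were summed as a check, and several sums moved with the lines. The 6 fibroblast and mesenchymal markers, of which none was at 0, summed to 731 to 864 TPM in U87, 482 to 490 TPM in the Diff libraries and 189 to 213 TPM in GSCs. COL1A1 was the largest part of the U87 sum, and the markers did not move as one. Of the 4 tested, COL1A2 (292 and 246 TPM in Diff cells and U87) and LUM (24.3 and 1.36 TPM) rose in Diff cells, while COL1A1 and PDGFRB fell. The 4 endothelial markers, none at 0, had sums of 8.75 to 10.004 TPM in U87, 12.4 to 16.2 TPM in the Diff libraries and 32.8 to 37.9 TPM in GSCs. The 4 neuron markers had sums of 10.2 to 13.7 TPM, 26.5 to 27.5 TPM and 12.7 to 13.2 TPM, with DCX at 0 in GSCs, and the 5 astrocyte markers 10.6 to 12.3 TPM, 11.6 to 12.9 TPM and 7.61 to 9.29 TPM, with AQP4 at 0 in U87 and GSCs. Immune markers reached at most 3.02 TPM in any library, with CD3E at 0 in U87 and Diff cells, and oligodendrocyte markers 0.788 TPM, with MOG at 0 in Diff cells and GSCs. Their part in the enzyme levels was not tested.

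The position of the genes on the chromosomes was compared with the change of the 12 tested genes on each side. MTHFD2 stood in a region where the neighbours were lower too. In Diff cells against U87, all 24 neighbours had a log2 fold change below 0 and 22 of them fell, with a median of −0.98. In GSCs 23 of 24 were below 0 and 20 fell, with a median of −0.84. MTHFD2 lay 0.88 below that median in Diff cells (−0.88) and 1.10 below it in GSCs (−1.10), with WDR54 lower than it in Diff cells and TET3 and HMGA1P8 lower in GSCs. The part of the region in the fall of MTHFD2 was not tested.

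PSPH showed the reverse setting, with neighbours that were higher in the derived lines. Their median was 0.61 in Diff cells and 0.47 in GSCs, with 20 and 22 of 24 above 0, while PSPH itself had differences of −0.06 and −0.001. For PSAT1 the neighbours had medians of 0.20 and 0.18, and none was as low as PSAT1. The medians around PHGDH were −0.01 and −0.16, around SHMT2 −0.05 and −0.06, and around ALDH1L2 −0.10 in both lines. Around MTHFD1L they were −0.32 in Diff cells and −0.01 in GSCs.

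Pseudogenes with sequence like that of the 9 genes had low levels. Of 14 in the table, 6 were at 0 in all libraries and only SHMT1P1 passed 1 TPM in any library, at 1.32 to 3.39 TPM. How reads shared between a gene and its copies were counted is not given in the sources used here. Such reads leave SHMT1 and the other genes with copies uncertain, by an amount that the pseudogene levels do not show. The genes whose pattern over the 9 libraries was most like that of a member were found among 9620 other protein-coding genes with a mean TPM over 5, by the root-mean-square difference of log2 values centred on each gene's mean. For PHGDH these were SLC1A5 (0.07), PER2 (0.103) and EIF4EBP1 (0.104). SLC1A5 had 298, 104 and 92.9 TPM on average in U87, Diff cells and GSCs, beside 87.3, 31.6 and 26.7 TPM for PHGDH. PSAT1 had no gene as close, the nearest being SYNPO (0.269), TNS1 (0.29) and BDKRB1 (0.311). For SHMT2 they were PPP1CA (0.0895), RTL6 (0.0979) and PIGS (0.101), for MTHFD2 TNFRSF10D (0.0868), INKA2 (0.101) and STXBP6 (0.108), and for MTHFD1L they included TUBA1A (0.0609) and EPN2 (0.0711). The likeness is a description over 9 libraries of 3 lines, and says nothing of shared control.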

How the data were processed

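RNA-seq was analysed for 9 libraries, 3 each of U87, GSCs and Diff cells. The values the authors deposited are on a log2(TPM + 1) scale, made, per the submitters' processing notes, with FastQC 0.11.9, Trimmomatic 0.39, HISAT2 2.2.1, featureCounts 2.0.5 and R 4.2.0 on GRCh38. The annotation and the strand setting of counting are not given in the sources used here. The labels describe removal of ribosomal RNA and directional libraries, whereas the methods of the study describe oligo(dT) selection. TPM keeps no depth, so counting error could not be computed.

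For genes whose TPM averaged over 1, limma 3.58.1 (lmFit, eBayes with a trend) was run in R 4.3.3 as 1 model of the 3 lines, with Benjamini-Hochberg adjustment per comparison. The test was checked on simulated data. Coordinates come from GENCODE 29 and start sites from RefSeq. The 9 genes and all lists were chosen with earlier results of these data known. All 9 genes were named, as well as up to 4 genes per list and comparison with the largest change among those past the test, ATF4, TYMS, MTHFD2L and ALDH1L1, pseudogenes, neighbours that changed more than a member, and the 3 genes most like each member that passed 1 on the log2 scale. Some genes that this rule allows are not reported here. Cell type markers were named only to check the labels. Alternatives covered the pseudocount, filter, scaling, threshold, fit and the omission of each library.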

Additional observations from a re-analysis of the deposited data

How the results depend on the processing

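Of the 9 genes, 7 passed the test in each comparison against U87 under every alternative at the same threshold, and 3 to 5 passed in Diff cells against GSCs. When single libraries were left out, 7495 to 10040 of the 22909 genes tested passed in Diff cells against U87. In these fits 9654 to 11332 genes passed in GSCs against U87 and 6231 to 8307 in Diff cells against GSCs. Requiring also a log2 change past 1 left 2812, 3908 and 1836 genes in Diff cells against U87, GSCs against U87 and Diff cells against GSCs, and 3, 5 and 1 of the 9. An adjusted p under 0.01 left 4897 genes in Diff cells against GSCs. PSPH in GSCs against U87 lay between −0.0317 and 0.0334 when single libraries were left out, so its direction turned, and it passed the test in none of these fits. SHMT1 in Diff cells against GSCs lost its call under quantile normalization (adjusted p = 0.0724), median-ratio scaling (0.0546), rescaled TPM (0.0686), a fit of the 6 libraries (0.0661) and without Diff replicate 1 (0.0873) or 3 (0.0703) or GSCs replicate 2 (0.0729) or 3 (0.0548), and, with its adjusted p of 0.0259, at a threshold of 0.01. In the same comparison MTHFD1L gained a call under quantile normalization (0.0379), median-ratio scaling (0.03) and rescaled TPM (0.0315), and PHGDH under rescaled TPM (0.0473). The causes were not tested. Of the genes called in Diff cells against GSCs, 43.2% were higher, and 53.8% under quantile normalization. No scaling moved the median of all genes by over 0.1. The deviations of same-numbered libraries had correlations of −0.0416 to 0.0489, which cannot show whether such libraries were cultured or prepared together. With the replicate number as a block 8434, 10619 and 7230 genes and 7, 7 and 4 of the 9 passed. With 3 libraries per line and no depth, precision rests only on the spread between libraries, pooled over the lines and moderated across genes.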
